A study of Mus musculus with 27 samples.

Results

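ATF3 sites in mouse Kupffer cells, macrophages that reside in the liver, were compared between a NASH diet and a control diet. All 38828 sites of the NASH list and all 16109 sites of the control list were used, which is 54937 of the 228956 sites on the 6 transcription factor and cofactor lists of the series. Each site was classed by overlap of at least 1 bp with the other list, as NASH-only, shared or control-only. Every group held C57BL/6J mice and cells sorted as F4/80-Hi, Tim4-Pos Kupffer cells. ATF3 was precipitated in 2 libraries from NASH diet cells and 2 libraries from control diet cells. H3K27ac, a histone mark of active promoters and enhancers, was measured in another 2 libraries per diet. Sites of the nuclear receptor LXR and of the acetyltransferase P300 came from 2 libraries per diet for each. The labels name the diets only as NASH diet and Control diet, with no composition, age or time on diet, and do not say whether the libraries of a diet came from separate animals. P-values therefore measure only the spread between libraries. The 27 samples of the series also hold 10 input libraries and 1 library of peritoneal macrophages, which were not analysed here. Livers were perfused and digested in the presence of flavopiridol, an inhibitor of transcription elongation, under both diets. Tim4 is the product of Timd4, so the sort selected cells on the protein of a gene described below.

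ATF3 is a basic leucine zipper protein induced by cell stress and by inflammatory signals. It forms dimers with itself or with partners of the AP-1 family such as JUN, and binds the AP-1 letters TGANTCA or the cyclic AMP response element (CRE) letters TGACGTCA, where N is any base. In macrophages it is known as a feedback regulator of inflammatory genes, and AP-1 factors commonly bind the same enhancers as the lineage factors of the cell. The 2 libraries of a diet gave 1 site list, in which each site carries an irreproducible discovery rate (IDR) score, a measure of how well its rank held between libraries. On this scale 540 stands for an IDR of 0.05, 830 for an IDR of 0.01, and 1000 is the highest score. The lists hold no value per library and no depth, so no occupancy difference between the diets has a replicate check. The header of the control list names a file with the word pooled and that of the NASH list does not, and the part of this difference in the lengths of the lists was not tested. A smaller share of cells with bound ATF3 and less ATF3 on each bound copy cannot be told apart in such lists.

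Promoter sequences with an ATF3 site are printed here because the AP-1 and CRE letters were found in different shares of the promoters of each class. They are RefSeq promoters of build GRCm38.p6, which has the coordinates of mm10, and run from 250 bases before to 50 bases after the transcription start site (TSS). Capitals mark a match to TGANTCA, and none of the promoters printed holds TGACGTCA. First come promoters with a NASH-only site: Gpnmb, a lysosomal and cell surface glycoprotein of lipid-laden macrophages (chr6:49036268-49036567, plus strand), Itgax, the integrin chain CD11c (chr7:128129300-128129599, plus strand), Il6, the cytokine interleukin-6 (chr5:30012864-30013163, plus strand), and Spp1, the secreted matrix protein osteopontin (chr5:104434861-104435160, plus strand). Their ATF3 sites lay at chr6:49036431-49036640, chr7:128129100-128129580, chr5:30012825-30013036 and chr5:104434840-104435053.
Gpnmb: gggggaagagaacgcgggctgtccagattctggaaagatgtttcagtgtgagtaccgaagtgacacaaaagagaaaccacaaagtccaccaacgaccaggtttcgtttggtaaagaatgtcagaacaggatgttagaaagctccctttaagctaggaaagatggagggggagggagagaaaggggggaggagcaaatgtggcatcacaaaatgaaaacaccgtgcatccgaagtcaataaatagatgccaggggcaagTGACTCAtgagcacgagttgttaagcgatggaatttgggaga
Itgax: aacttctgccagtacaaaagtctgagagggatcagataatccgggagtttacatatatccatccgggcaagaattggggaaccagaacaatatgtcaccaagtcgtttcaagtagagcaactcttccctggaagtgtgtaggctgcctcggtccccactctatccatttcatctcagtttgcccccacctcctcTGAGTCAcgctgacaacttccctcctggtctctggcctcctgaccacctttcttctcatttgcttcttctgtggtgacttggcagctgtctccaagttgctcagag
Il6: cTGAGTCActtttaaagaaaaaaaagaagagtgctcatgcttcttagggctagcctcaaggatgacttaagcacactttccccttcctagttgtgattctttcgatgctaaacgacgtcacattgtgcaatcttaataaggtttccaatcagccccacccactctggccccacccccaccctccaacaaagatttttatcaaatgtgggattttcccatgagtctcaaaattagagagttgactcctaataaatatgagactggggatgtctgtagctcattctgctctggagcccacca
Spp1: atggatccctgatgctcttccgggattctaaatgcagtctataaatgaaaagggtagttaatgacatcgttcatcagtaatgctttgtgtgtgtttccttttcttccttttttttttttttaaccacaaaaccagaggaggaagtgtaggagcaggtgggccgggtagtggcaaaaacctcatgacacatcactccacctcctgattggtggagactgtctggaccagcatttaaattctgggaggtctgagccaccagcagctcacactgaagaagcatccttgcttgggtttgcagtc
The match began 9 bases after the TSS in Gpnmb (TGACTCA), 56 bases before it in Itgax (TGAGTCA) and 249 bases before it in Il6 (TGAGTCA), and Spp1 held none. Next come promoters whose site was shared by both diets: Trem2, a lipid-sensing receptor of macrophages (chr17:48346151-48346450, plus strand), and Tnfaip3, the NF-kB inhibitor A20 (chr10:19015361-19015660, minus strand).
Trem2: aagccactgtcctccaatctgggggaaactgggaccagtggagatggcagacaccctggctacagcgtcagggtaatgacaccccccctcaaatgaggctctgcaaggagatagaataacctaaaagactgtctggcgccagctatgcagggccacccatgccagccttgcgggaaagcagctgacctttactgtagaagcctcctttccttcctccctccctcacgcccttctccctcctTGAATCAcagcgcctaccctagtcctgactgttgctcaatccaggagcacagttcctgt
Tnfaip3: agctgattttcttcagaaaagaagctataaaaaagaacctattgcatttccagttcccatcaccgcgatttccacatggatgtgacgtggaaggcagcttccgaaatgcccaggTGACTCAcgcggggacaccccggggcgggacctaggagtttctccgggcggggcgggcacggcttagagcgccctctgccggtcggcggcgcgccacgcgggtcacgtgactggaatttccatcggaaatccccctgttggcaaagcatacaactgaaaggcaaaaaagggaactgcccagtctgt
The match began 9 bases before the TSS in Trem2 (TGAATCA) and 136 bases before it in Tnfaip3 (TGACTCA). The last is the promoter of Timd4, the phosphatidylserine receptor Tim4 that marks resident Kupffer cells (chr11:46810549-46810848, plus strand), with a control-only site at chr11:46810599-46810826.
Timd4: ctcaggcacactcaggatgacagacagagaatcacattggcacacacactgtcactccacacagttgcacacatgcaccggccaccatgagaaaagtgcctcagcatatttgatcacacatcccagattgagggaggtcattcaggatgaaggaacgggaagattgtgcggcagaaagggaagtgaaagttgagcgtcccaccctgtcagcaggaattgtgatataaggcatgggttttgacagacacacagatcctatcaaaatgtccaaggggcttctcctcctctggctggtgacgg
No match to either motif was in the Timd4 window. Promoters of Atf3, Abca1 and Nfkbia, with a shared site, and of Clec4f, with a control-only site, are not printed and held no match either. The printed promoters therefore do not stand for the share of each class with a match.

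Over all promoters with a site centre inside them, the AP-1 or CRE letters, on either strand, were in 14.7% of 1888 with a NASH-only site, 14.3% of 1450 with a shared site and 4.35% of 506 with a control-only site. The same share was 5.15% of 5690 promoters that held the centre of an accessible window and no ATF3 site, and 9.16% of all 21262 promoters. The AP-1 letters alone were in 7.68%, 7.59% and 2.17% of NASH-only, shared and control-only promoters. This compares with 3.11% of accessible promoters without ATF3 and 6.99% of all promoters. The CRE letters alone were in 7.15%, 6.97% and 2.17%, against 2.11% of accessible promoters without ATF3 and 2.23% of all promoters. So the control-only promoters held the letters about as often as accessible promoters without ATF3. Where the letters were present, their median distance to the centre of the ATF3 site was 20 bp at 277 NASH-only promoters, 24 bp at 208 shared promoters and 75.5 bp at 22 control-only promoters. They lay inside the site in 91.7%, 95.7% and 68.2% of these. As a ratio of shares, motifs of other factors differed less between the classes. In percentage points the GC box differed more than the AP-1 letters alone or the CRE letters alone. The E-box CACGTG, which can be bound by MYC and MiT family factors, was in 12.6%, 11.1% and 11.1%. Its share was 10.6% of accessible promoters without ATF3 and 7.84% of all promoters. The GC box CCGCCC, read on both strands as GGGCGG and bound by SP factors, was in 62.3%, 61.2% and 69.2%. Its share was 73.9% of accessible promoters without ATF3 and 46.2% of all promoters. These motifs share no full match with TGANTCA or TGACGTCA. A match describes letters, not a bound site, and sequences outside promoters were not analysed here.

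The NASH list was the longer, and most control sites lay within it. Of the NASH list, 25507 sites (65.7%, exact 95% interval 65.2 to 66.2%) were NASH-only and 13321 overlapped 13301 sites of the control list. Of the control list, those shared sites made up 82.6% and 2808 sites (17.4%, 16.8 to 18.0%) were control-only. Intervals cover counting error only. The classes are also shown in the plot of site numbers and of the share at the highest score.

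**Figure D1:**
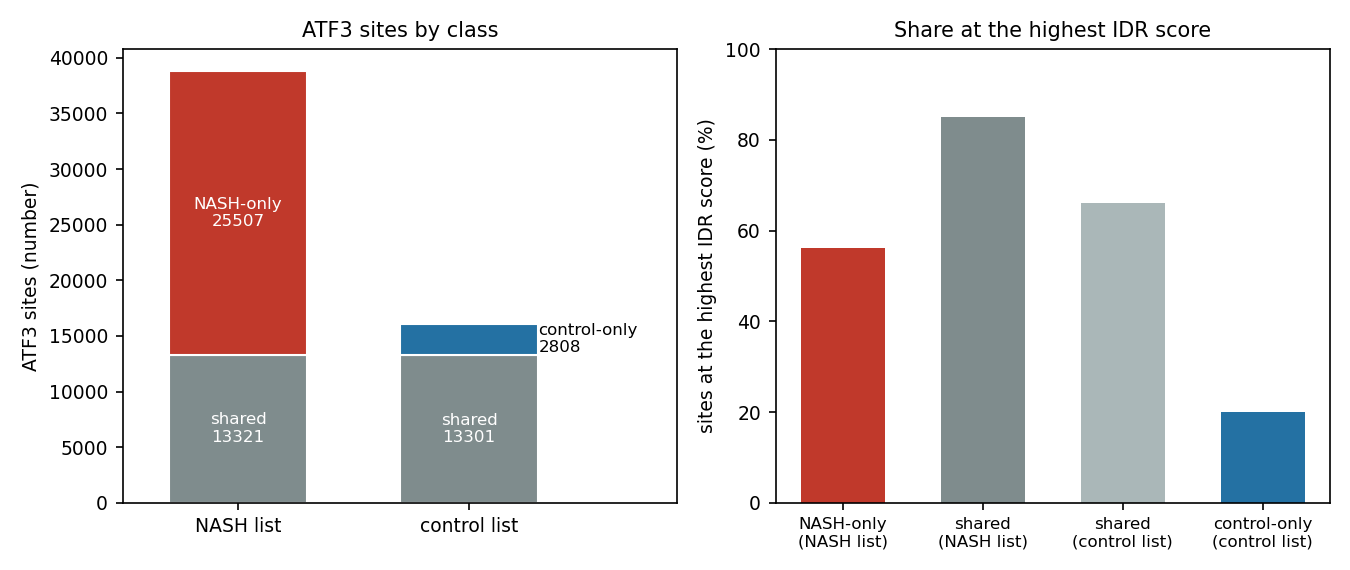
The left panel plots the number of ATF3 sites on the NASH and control lists, divided into NASH-only (red), shared (grey) and control-only (blue) sites, and the right panel the share of each class at the highest IDR score in percent, with shared sites scored on each list. NASH-only sites were 25507 and control-only sites 2808, and the share at the highest score was 56.1% of NASH-only and 19.9% of control-only sites.

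The classes differed in how reproducible their sites were within their own list. On the NASH list, 56.1% of NASH-only sites and 85.1% of shared sites had the highest score. On the control list, 19.9% of control-only sites and 66.0% of shared sites had it, and the median score of control-only sites was 723. Read the other way, 44.2% of NASH sites at the highest score were shared, against 19.6% of those below it with an IDR of at most 0.01 and 13.1% of those above 0.01. The same shares on the control list were 94.0%, 78.5% and 61.8%. So 559 control-only sites had the highest score of their list, against 14311 NASH-only sites. With both lists held to the highest score, 17421 sites were NASH-only, 8232 shared and 1117 control-only, so that sites below it on the other list count as absent. Widths were close, with a median of 224 bp for NASH-only, 222 bp for shared (NASH list) and 236 bp for control-only sites.

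Few sites depended on the exact overlap. Only 70 shared sites of the NASH list and 55 of the control list overlapped by under 50 bp, and 294 NASH-only and 138 control-only sites lay within 100 bp of a site of the other list. Unshared sites were often near the other list all the same: 41.7% of NASH-only sites and 62.8% of control-only sites lay within 10000 bp of one, and 13.9% and 8.58% lay over 100000 bp from any. The excess of NASH sites was on every chromosome. Leaving out the Y, which held 5 and 2 sites, the NASH list had between 2.16 (chromosome 11) and 2.72 (chromosome 13) sites for each control site. Chromosome 11 held 8.97% of control-only sites and 6.60% of NASH-only sites.

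NASH-only sites lay farther from genes' starts than control-only sites, and less often in chromatin that was called accessible. The TSS lay within 1000 bp of 14.4% of NASH-only sites (interval 14.0 to 14.9%), 18.3% of shared sites (17.7 to 19.0%) and 28.4% of control-only sites (26.7 to 30.1%). The median distance was 18160 bp, 15030 bp and 9984 bp. Within the promoters, 43.9% of NASH-only, 71.1% of shared and 12.3% of control-only sites had the highest score, each a lower share than among that class's distal sites (58.2%, 88.3% and 22.9%). The accessible windows were ATAC-seq peaks that the authors merged from 2 lists, one of the control diet and one whose name holds 20 weeks of diet. No window lay under 33.9% of NASH-only sites, 6.10% of shared and 14.5% of control-only sites. A window on the diet list alone lay under 11.2% of NASH-only sites, 1.49% of shared and 42 of the 2808 control-only sites. A window on the control list alone lay under 8.12% of NASH-only, 7.76% of shared and 21.8% of control-only sites. Among sites within windows, 43.5% of NASH-only, 42.3% of shared and 33.0% of control-only sites were annotated to introns and 35.2%, 36.4% and 33.2% to intergenic sequence.

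**Figure D2:**
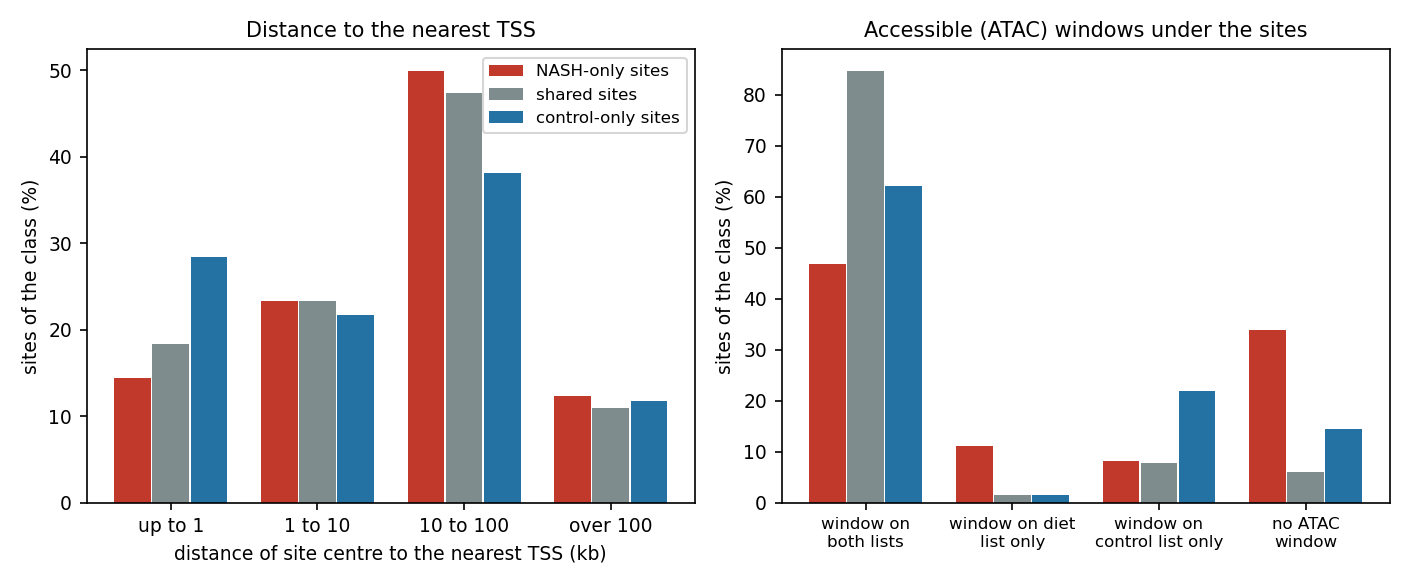
The left panel plots the share of each class of ATF3 sites (percent) by the distance of the site centre to the nearest TSS in kb, and the right panel the share over accessible (ATAC) windows by the list that holds the window. Control-only sites have the tallest bar at the TSS (28.4%) and NASH-only sites the tallest bar without a window (33.9%).

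LXR and P300 sites lay at more than 1 in 2 ATF3 sites of each class on the list of the same diet. LXR is an oxysterol-activated receptor that induces cholesterol efflux genes, and P300 is an acetyltransferase recruited to active enhancers. LXR sites of the NASH list lay at 62.6% of NASH-only ATF3 sites, 93.2% of shared and 73.5% of control-only sites. LXR sites of the control list lay at 44.3%, 89.8% and 79.1% of these classes. So the control-only sites were the class in which LXR was listed more often under the control diet than under the NASH diet. P300 sites of the NASH list lay at 63.2% of NASH-only, 94.0% of shared and 75.7% of control-only sites, and those of the control list at 23.6%, 71.5% and 53.1%. The P300 list had 52628 sites for NASH and 25219 for control, so the control list offered fewer sites to overlap. The LXR list had 51709 sites for NASH and 44463 for control. The file headers mark the NASH lists of both proteins with the number 30, and no source used here says what it stands for. A P300 site of the NASH list, with none of the control list, was at 40.8% of NASH-only, 23.7% of shared and 29.0% of control-only ATF3 sites.

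**Figure D3:**
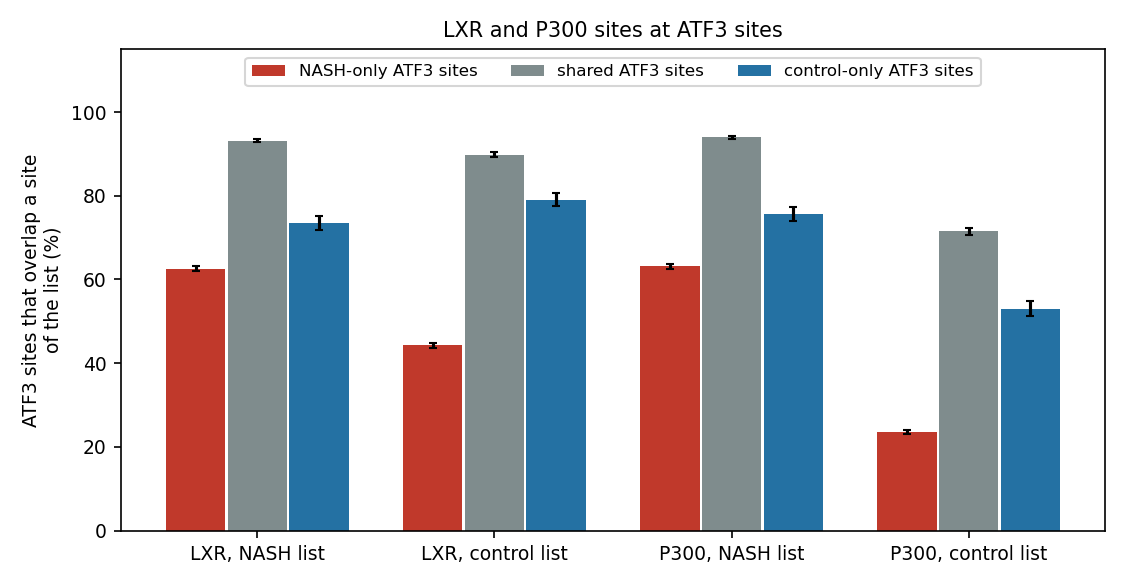
Bars give the percent of NASH-only (red), shared (grey) and control-only (blue) ATF3 sites that overlapped an LXR or P300 site of the NASH or the control list, with exact 95% binomial intervals that cover counting error only. Shared sites have the tallest bar on each list (71.5% to 94.0%), and NASH-only sites the shortest on each (23.6% to 63.2%).

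From the side of the other proteins, ATF3 of the NASH list was at 54.9% of LXR sites and 54.4% of P300 sites of the NASH diet. ATF3 of the control list was at 32.0% of LXR sites and 43.8% of P300 sites of the control diet. Among NASH-only sites, 6462 (25.3%) overlapped none of the 4 LXR and P300 lists, against 1.84% of shared and 7.55% of control-only sites. Of these NASH-only sites, 4648 also lay outside every accessible window. The highest score was held by 40.3% of the 6462 sites and 36.9% of the 4648, against 66.2% of the 13403 NASH-only sites that had both LXR and P300 of the NASH list. Their median distance to a TSS was 25340 bp and 27850 bp, against 15340 bp for the sites with both proteins.

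By nearest TSS, NASH-only sites reached 8877 of 20392 protein-coding genes (43.5%), shared sites 5900 (28.9%) and control-only sites 2265 (11.1%). At 8433 genes the NASH list had more sites than the control list, and at 768 genes (3.77%) fewer. The genes with the most NASH-only sites were Lpp, a focal adhesion scaffold, with 46, Trib1, a pseudokinase that directs degradation of C/EBP proteins, with 40, and Bcl2l11, the pro-apoptotic protein BIM, with 37. Next came Zeb2, a transcription factor of macrophage identity (37), Klf6, a zinc finger transcription factor (33), Myc, a growth regulator (32), Cited2, which binds P300 and CBP (31), Pik3r1, the regulatory subunit of PI3 kinase (31), Atp2b1, a plasma membrane calcium pump (30), and Btg1, an anti-proliferative factor (29). Each of these also had sites on the control list, between 9 at Bcl2l11 and Atp2b1 and 22 at Lpp. The sites were spread over wide neighbourhoods, from 318.6 kb at Trib1 to 1643 kb at Zeb2, and a gene far from other genes collects more sites by this rule. At Trib1 35 of the 40 NASH-only sites had the highest score, the largest share of the 10 genes.

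The genes with the most control-only sites included 2 genes of the resident Kupffer cell, Timd4 with 8 and Marco, a scavenger receptor, with 7. Robo2, an axon guidance receptor, had 8, and Slc7a14, a transporter-family protein, had 6. Clint1, an adaptor of clathrin transport, Efnb2, the ligand ephrin-B2, Frmd4b, the predicted gene Gm826, and Sgcd, a sarcoglycan, had 5 each. At Slc7a14, Efnb2 and Sgcd the NASH list had no site, at Timd4 it had 1 and at Marco and Robo2 3 each, while at Frmd4b and Gm826 it had 24 and 46. The control-only sites of Clint1, Timd4 and Sgcd all lay on one stretch of chromosome 11, from 45543554 to 47439636. LXR of the control list was at 8 of the 8 Timd4 sites and 7 of the 7 Marco sites, and LXR of the NASH list at 1 and 1. P300 of the control list was at 6 and 5 of these sites, and P300 of the NASH list at 1 and 0.

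The genes of 16 pathway and cell state lists were then counted, beside a share over all sites of 65.7% NASH-only on the NASH list and 17.4% control-only on the control list. The lists were drawn up with earlier results of these data known, and no test was made on them. Among the AP-1 and ATF factors, the family that holds ATF3 and its partners, 58.3% of 127 NASH-list sites were NASH-only and 13.3% of 60 control-list sites control-only. Fos had 10 NASH-only and 11 shared sites, Jun had 10 NASH-only, 6 shared and 4 control-only, and Fosl2 had 10 NASH-only, 2 shared and 1 control-only. Atf3 itself had 8 NASH-only and 8 shared sites, the shared ones including its own promoter. In the integrated and oxidative stress response, where ATF3 acts downstream of ATF4, 65.1% of 63 NASH-list sites were NASH-only and 1 of 24 control-list sites control-only. All 15 sites of Slc7a11, the cystine transporter, were NASH-only, while all 7 sites of Hmox1, heme oxygenase, were shared.

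Among NF-kB and inflammatory genes, 55.6% of 205 NASH-list sites were NASH-only and 10.8% of 102 control-list sites control-only. Tnfaip3 had 20 NASH-only and 10 shared sites, Nfkbiz, the NF-kB cofactor, had 13 NASH-only, 13 shared and 1 control-only, and Ch25h, cholesterol 25-hydroxylase, had 8 NASH-only and 6 shared. The Kupffer cell identity genes had the lowest NASH-only share and the highest control-only share of the 16 lists: 50.5% of 111 NASH-list sites were NASH-only and 31 of 86 control-list sites (36.0%) control-only. Those 31 were spread over 13 of 20 genes, with 8 at Timd4 and 7 at Marco. Csf1r, the receptor of the macrophage growth factor CSF1, had 6 NASH-only, 7 shared and 1 control-only site, and Cd5l, a secreted scavenger-family protein, had 7, 5 and 1. Pcolce2, an enhancer of procollagen processing, had 2 shared sites, 1 control-only site and no NASH-only site.

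The lipid-associated and scar-associated macrophage genes, which mark macrophages of fatty and fibrotic tissue, had 68.0% of 150 NASH-list sites NASH-only and 3 of 51 control-list sites control-only. Mitf, a transcription factor of lysosome genes, had 9 NASH-only, 7 shared and 1 control-only site, and Plin2, the lipid droplet coat protein, had 9 NASH-only and 4 shared. The LXR target genes had 60.8% of 148 NASH-list sites NASH-only. Abca1, the cholesterol efflux pump, had 24 NASH-only, 13 shared and 2 control-only sites, and Abcg1, another efflux pump, had 8 NASH-only and 3 shared. Macrophage lineage transcription factors had many sites of both kinds, with 59.2% of 304 NASH-list sites NASH-only and 7.52% of 133 control-list sites control-only. Runx1 had 27 NASH-only and 11 shared sites, and Maf had 15 NASH-only, 17 shared and 3 control-only. Over the other 9 lists (cholesterol synthesis, TGF-beta and BMP, Notch, MHC class II, interferon-stimulated, MAP kinase feedback, growth factor and matrix, lysosome and housekeeping genes) the NASH-only share ran from 53.8% to 71.9% and the control-only share from 5.88% to 20.0%. The 9 lists of marker genes of other cell types held few sites, between 1 and 26 on the NASH list each.

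H3K27ac was measured apart from ATF3, with replicates, and is the measure on which tests were run. It was counted in 70300 accessible windows, as tags scaled to 10000000 per library, from totals of 9468035 to 22615879 tags. After a filter on low values 35947 windows were tested with limma on log2(value + 1), and a window was called at an adjusted p under 0.05 and a change of at least 1 on the log2 scale. Over all windows tested, 720 (2.00%) were raised in NASH and 1651 (4.59%) lowered. The median window changed by -0.26 on this scale, and log2 changes below are given after that median was subtracted, while calls and adjusted p test the change before subtraction. With TMM scaling, which moves the median close to zero, 1191 windows (3.31%) were raised and 902 (2.51%) lowered.

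Windows with ATF3 sites of the NASH list only gained the mark more often than windows in general, and windows with sites of the control list only lost it more often, as did windows without ATF3. Of 8614 tested windows with sites of the NASH list only, 359 (4.17%) were raised and 189 (2.19%) lowered. Of 1392 windows with sites of the control list only, 5 (0.359%) were raised and 111 (7.97%) lowered. These window classes follow the lists, not the site classes: 8540 of the 8614 windows held a NASH-only site and the rest only a shared one, and 1299 of the 1392 held a control-only site, of which 109 were lowered (8.39%). Windows with sites of both lists were called less often than windows in general in both directions, with 56 of 8163 raised (0.686%) and 186 lowered (2.28%). The 17778 windows with no ATF3 site had 300 raised (1.69%) and 1165 lowered (6.55%). With TMM scaling, the same counts were 516 raised and 84 lowered for NASH-list-only windows, 17 and 70 for control-list-only windows, 125 and 86 for windows with both, and 533 and 662 without ATF3. So of the called windows under the NASH list alone, 65.5% were raised, or 86.0% with TMM scaling, and of those under the control list alone 4.31%, or 19.5%. All 359, 56 and 5 raised windows were also raised with TMM scaling, and 84, 86 and 70 of the lowered ones were also lowered. Counts depended on single libraries: raised windows under the NASH list alone numbered 74 without NASH library 1, 76 without NASH library 2, 393 without control library 1 and 340 without control library 2. Lowered windows under the control list alone numbered 77, 57, 54 and 107 in the same order, and over all windows 195, 176, 841 and 785 were raised. In each of 11 settings, these included, the raised share under the NASH list alone was above that of all windows, by 1.58 to 2.13 times, and the lowered share under the control list alone by 1.27 to 2.13 times. The lowered share without ATF3 was above it in each as well, by 1.35 to 1.62 times.

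**Figure D4:**
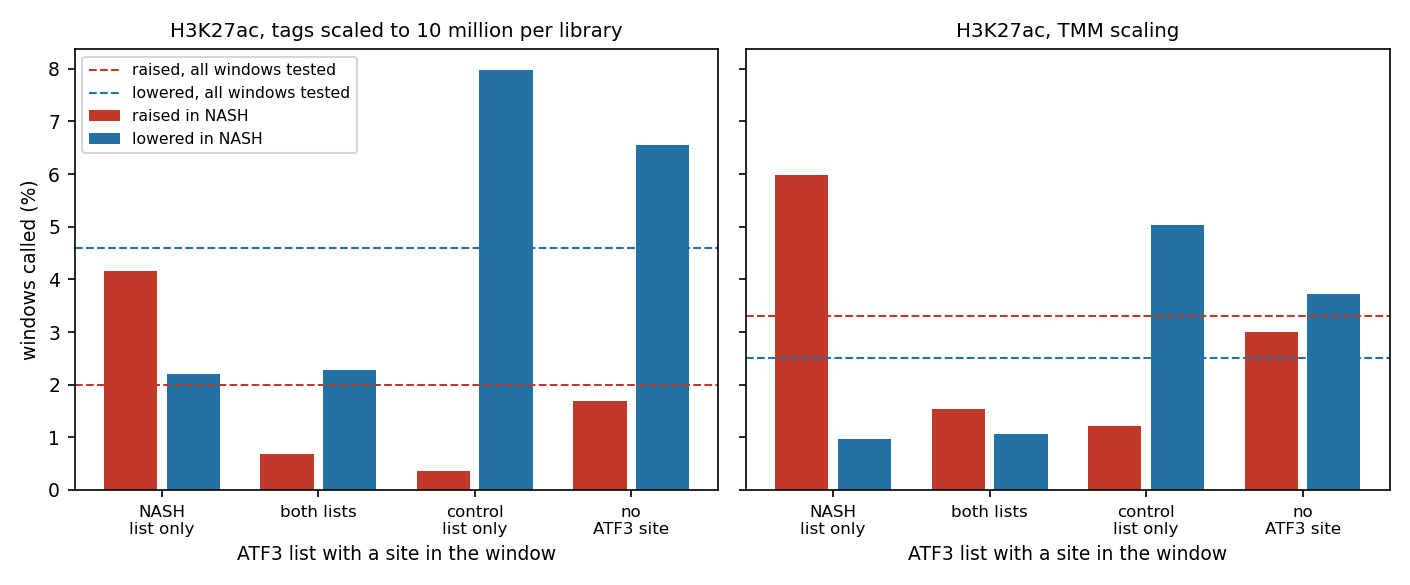
Bars give the percent of tested H3K27ac windows that were raised (red) or lowered (blue) in NASH, by the ATF3 list with a site in the window, for tags scaled to a common total (left) and for TMM scaling (right), and dashed lines give the percent over all windows tested. Raised windows stand above their line under the NASH list alone (4.17% and 5.99%), and lowered windows stand above theirs under the control list alone (7.97% and 5.03%) and without ATF3 (6.55% and 3.72%).

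The level of the mark itself moved little for most windows. Median normalised tags of windows under the NASH list alone were 12.8 and 11.4 in the NASH libraries, against 13.7 and 12.4 in the control libraries. Under both lists they were 11.2 and 10.4 in NASH, against 13.7 and 12.8 in control, and under the control list alone 11.7 and 10.9 in NASH, against 16.9 and 14.6 in control. Relative to the median window, the median log2 change was 0.12 under the NASH list alone, 0.04 under both lists, -0.12 under the control list alone and -0.06 without ATF3. The filter kept 8614 of 16992 windows under the NASH list alone, 8163 of 12549 under both and 1392 of 2510 under the control list alone, and a window with a low level in one diet could pass through the other. Without the filter, 59 windows under the NASH list alone were raised and 14 lowered, and 0 under the control list alone were raised and 10 lowered.

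The share of windows called differed with accessibility, P300 and position. Under the NASH ATF3 list alone, 140 of 597 windows on the diet ATAC list only were raised (23.5%), against 209 of 7061 windows on both ATAC lists (2.96%). Windows of the diet ATAC list only without any ATF3 site were raised in 138 of 1340 cases (10.3%). With P300 on the NASH list only, 263 of 3444 windows under the NASH ATF3 list alone were raised (7.64%), against 23 of 3872 with P300 on both lists (0.594%) and 72 of 1102 with P300 on neither list (6.53%). Windows with no ATF3 site were raised in 96 of 4713 cases with P300 on the NASH list only (2.04%) and in 184 of 8345 with P300 on neither list (2.20%). Farther than 1000 bp from a TSS 308 of 5748 windows under the NASH ATF3 list alone were raised (5.36%), against 51 of 2866 within that distance (1.78%). For windows with no ATF3 site these counts were 220 of 8185 (2.69%) and 80 of 9586 (0.835%). Under the control ATF3 list alone, 52 of 261 windows on the control ATAC list only were lowered (19.9%), against 58 of 1099 on both ATAC lists (5.28%). Windows of the control ATAC list only without ATF3 were lowered in 747 of 6291 cases (11.9%). These are counts within 1 fit, and no test between the subsets was made. The levels of marker genes differed as well: the 5 defining Kupffer cell genes (Clec4f, Timd4, Vsig4, Cd5l and Adgre1), all with windows, summed to 827 and 785 normalised tags in NASH and 1323 and 1345 in control. Sums for 6 T cell genes, of which Cd3e, Cd3g and Cd8a had no window, were 20.3 and 33.8 in NASH and 15.8 and 6.63 in control, and for 6 hepatocyte genes, of which Cyp2e1 and Serpina1a had none, 30.4 and 30.7 in NASH and 24.3 and 23.9 in control. Those for monocyte, neutrophil, dendritic cell and endothelial genes were lower in NASH, with a ratio of means from 0.629 (dendritic cell) to 0.839 (monocyte). The same ratio was 0.869 for 10 housekeeping genes, close to that of the monocyte genes. All these sums were left uncorrected for the change of the median window. Their part in the results was not tested.

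The strongest raised windows under the NASH list alone were led by an intergenic window 2099 bp before Mir3960, at chr2:32714971-32715171. It had 32.5 and 29.1 normalised tags in NASH and 0 and 0 in control, which is at least 32.9-fold higher against a floor of 3 tags over both control libraries (adjusted p = 8.22e-05, limma). The window at the Gpnmb TSS followed. Plin2 had a window 19723 bp before its TSS with 84.8 and 75.9 tags in NASH and 20.1 and 16.8 in control, a log2 change of 2.33 (SE 0.27, adjusted p = 0.000293, limma). An intron window of Myo3b, a myosin, had 40.5 and 32.8 tags in NASH and 3.17 and 3.54 in control (3.36, SE 0.41, adjusted p = 0.000301, limma). Windows of Xylt1, a xylosyltransferase of proteoglycan synthesis, and Rab21, an endosomal GTPase, had 2 tags in all in control libraries and rose 62.5-fold (counting interval 17.0 to 521) and 41.0-fold (11.0 to 343). In these windows NASH and control libraries did not overlap, which the rule for naming windows required. The calls held in all 10 alternatives.

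Some windows under the NASH list alone went the other way. An intron window of Sh3bp5, an adaptor of BTK and JNK, had 12.3 and 9.88 tags in NASH and 49.6 and 77.4 in control (-2.13, SE 0.32, adjusted p = 0.000338, limma). Fan1, a DNA repair nuclease, had 2.13 and 2.08 tags in an intron window in NASH and 27.5 and 31.8 in control (-3.04, SE 0.45, adjusted p = 0.000418, limma). The other lowered windows named by the rule were at Ank2, Blk, Map1lc3a and Zfp217, with log2 changes of -3.13 to -1.76, and the call at Zfp217 was lost without control library 2 (adjusted p = 0.0780). Under both lists, the raised windows were nearest to Pik3r6, an adaptor of PI3 kinase gamma, Unc93a, Nav2, Gpa33, Sqstm1, the autophagy receptor p62, and Rabgef1. The Pik3r6 window lay 34921 bp before its TSS and was annotated to an intron. It had 61.9 and 48.9 tags in NASH and 5.28 and 5.75 in control (3.36, SE 0.35, adjusted p = 9.62e-05, limma). Sqstm1 had 54.9 and 53.6 tags in NASH and 16.9 and 19.5 in control (1.79, SE 0.28, adjusted p = 0.00371, limma). The lowered ones were at Lepr, Hpn, Cd163, a hemoglobin scavenger receptor of resident macrophages, Ptprm, Phactr1 and Trib1, from -2.78 (Cd163) to -1.34 (Trib1). Calls at Nav2 and Gpa33 were lost without NASH library 2 (adjusted p = 0.0639 and 0.0579, limma) and that at Cd163 without control library 2 (0.0650).

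Under the control list alone, the lowered windows named by the rule were at Mgst2, Marco, Arl15, Ptgis, AA619741 and Frmd4b. Mgst2, a microsomal glutathione transferase, had 3.73 and 6.76 tags in NASH and 41.2 and 38.9 in control (-2.50, SE 0.39, adjusted p = 0.000549, limma). Ptgis, prostacyclin synthase, had 8 and 3.64 tags in NASH and 37.0 and 41.1 in control (-2.37, SE 0.40, adjusted p = 0.000962, limma). All 6 kept their call in the 10 alternatives. Raised windows included those at Zfp36, which destabilises cytokine mRNAs, Xdh, Bach2 and Sgms1. Zfp36 had 67.2 and 74.4 tags in NASH and 35.9 and 26.5 in control (1.43, SE 0.26, adjusted p = 0.0115, limma). Each of these 4 lost its call in at least 3 alternatives and without at least 1 NASH library.

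The counts by gene list stand beside 2.00% raised and 4.59% lowered over all windows, 4.17% and 2.19% under the NASH list alone, 0.686% and 2.28% under both lists, 0.359% and 7.97% under the control list alone and 1.69% and 6.55% without ATF3. Counts in an alternative setting stand beside other shares. With TMM scaling 3.31% of all windows were raised and 2.51% lowered. By DESeq2 these shares were 1.19% and 0.573%, and without the filter 0.196% and 0.244%. They also changed when 1 library was left out. Windows at lipid-associated and scar-associated genes were raised in 21 of 109 cases and lowered in 0, and those under the NASH ATF3 list alone in 12 of 34 (median log2 change 1.39 relative to all windows). The raised windows under the NASH list alone were at Anxa2, Cd63, Cd9, Gpnmb, Itgax, Mmp12, Plin2 and Spp1. Without NASH library 1 the counts were 5 raised in all and 4 under the NASH list alone, and without NASH library 2 they were 9 and 6. Without control library 2, 3 windows of the list were lowered. Kupffer cell identity windows were raised in 0 of 143 cases and lowered in 32, or 26 with TMM scaling, 12 by DESeq2 and 11 of 219 without the filter. Without 1 library in turn the count was 20 (without NASH library 2) to 29. Under the control list alone 6 of 13 were lowered (at Marco, Pcolce2 and Timd4, median -1.75), or 2 of 13 by DESeq2 and 1 of 26 without the filter. Without ATF3 24 of 71 were lowered, or 14 of 79 without NASH library 2 and 9 of 71 by DESeq2. Under both lists 1 of 37 was lowered. Stress response windows under the NASH list alone were raised in 6 of 18 cases, all at Slc7a11 and Psat1, a serine synthesis enzyme, but in 0 without either NASH library. NF-kB windows under the NASH list alone were raised in 6 of 38 cases (Cxcl1, Nfkbia, Tnfaip2, Tnfaip3 and Traf1) and lowered in 4 (Ccl7, Il10, Il1b and Il6), with 1 raised and 1 lowered without NASH library 1, 2 and 2 without NASH library 2, 6 and 1 without control library 1 and 8 and 2 without control library 2, and with TMM scaling 9 were raised and 1 lowered. Lineage factor windows under the NASH list alone were raised in 6 of 53 cases (Bach1, Klf6, Runx1 and Runx2), with 1 and 2 without NASH library 1 and 2. Those without ATF3 were lowered in 9 of 75 cases, but in 4 of 84 without NASH library 1, 5 of 84 without NASH library 2, 5 of 80 without control library 1 and 0 by DESeq2.

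Gpnmb had 8 ATF3 sites on the NASH list, between 24097 bp before and 17 bp after its TSS, and no site on the control list. Of these, 6 had the highest score, 6 overlapped LXR of the NASH list and 6 P300 of the NASH list, 1 overlapped LXR of the control list and none P300 of the control list. The window over the site with the AP-1 letters printed above, chr6:49036511-49036711, had 30.9 and 36.4 normalised tags in NASH and 1.06 and 0 in control. In tags that was 128 in NASH and 1 in control, a ratio of 108 (counting interval 19.1 to 4304; adjusted p = 0.000155, limma), and the call held in all 10 alternatives. The window over the next site, 598 bp before the TSS, had 79 and 1 tags, a ratio of 66.7 (11.6 to 2669), and its call was lost without NASH library 1 (adjusted p = 0.121, limma). A window without an ATF3 site, 597 bp into the gene, had the lowest adjusted p at Gpnmb, with 41.1 and 39.0 tags in NASH and 2.11 and 1.33 in control (4.19, SE 0.44, adjusted p = 9.74e-05, limma). Spp1 had 5 NASH-only sites and none on the control list. Its tested window, at 1 of 3 sites clustered 8331 to 9080 bp before the TSS, had 23.5 and 15.1 tags in NASH and 0 and 0.44 in control (ratio 61.7, 10.7 to 2469; adjusted p = 0.000627, limma). That call was lost without either NASH library (adjusted p = 0.155 and 0.0589, limma). In contrast to Gpnmb, 1 of the 5 Spp1 sites overlapped LXR and none P300. At each of these genes 3 sites lay outside accessible windows.

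**Figure D5:**
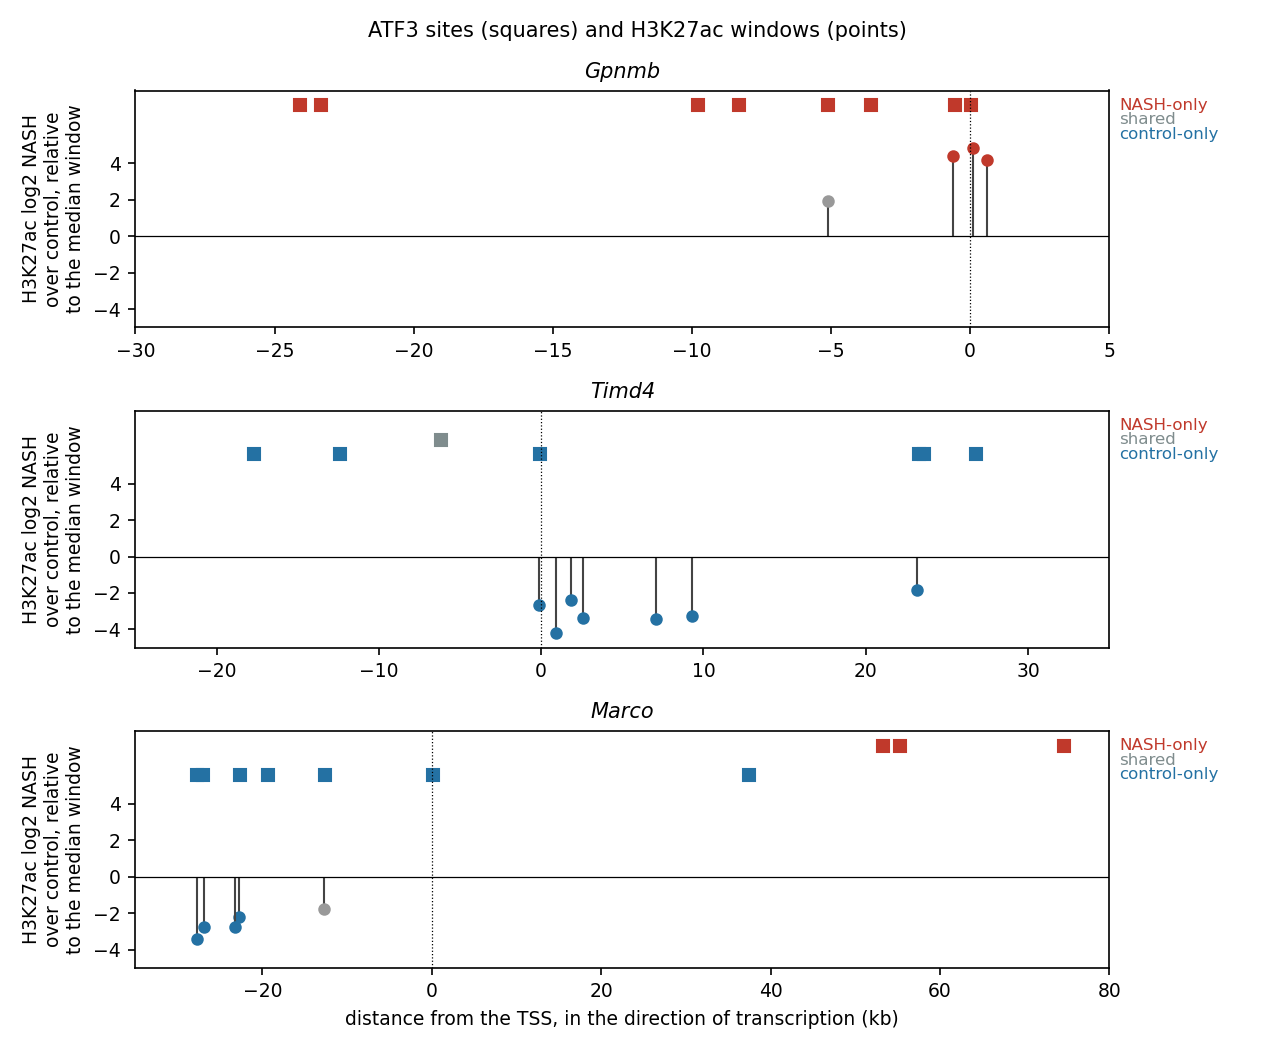
Squares mark ATF3 sites (red NASH-only, grey shared, blue control-only) and points the log2 change of H3K27ac, NASH over control, relative to the median window, in tested windows at Gpnmb, Timd4 and Marco, against the distance from the TSS in kb, with points coloured where called (red raised, blue lowered) and grey otherwise. The 8 Gpnmb sites are all NASH-only with raised windows at the TSS, and the Timd4 and Marco windows that were called are all lowered, and 2 control-only sites assigned to Timd4 lie beyond the axis.

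At Itgax the promoter site was NASH-only and 2 intron sites were shared. Its promoter window, chr7:128129369-128129603, had 44.8 and 33.3 tags in NASH and 6.34 and 3.54 in control (3.04, SE 0.40, adjusted p = 0.000615, limma) and kept its call in all 10 alternatives. Trem2 had shared sites at its promoter and in an intron, with scores of 1000 and 1000 on the NASH list and 838 and 707 on the control list, and its windows were not called (log2 changes 0.87 and 1.74, adjusted p = 0.489 and 0.0931, limma). Traf1, a TNF receptor adaptor, had 3 NASH-only sites and 1 shared. The window at its NASH-only site 1264 bp before the TSS had 40.0 and 34.3 tags in NASH and 7.39 and 3.98 in control (2.82, SE 0.39, adjusted p = 0.000997, limma). A window without an ATF3 site, 1809 bp before the TSS, had 99.2 and 73.8 tags in NASH and 4.22 and 9.73 in control (3.79, SE 0.36, adjusted p = 4.32e-05, limma). At Tnfaip3 the called windows under the NASH list alone lay 15417 and 16239 bp downstream of the TSS, with log2 changes of 2.93 (SE 0.51, adjusted p = 0.00407, limma) and 2.81 (SE 0.67, adjusted p = 0.0274, limma), and neither was called without NASH library 1 or without NASH library 2. An intron window without an ATF3 site rose as well, by 2.93 (adjusted p = 6.99e-05, limma) 3505 bp into the gene. Atf3 rose in 3 windows 598, 1471 and 2478 bp before its TSS, none of which held an ATF3 site, while the window at the edge of the shared promoter site was not called (0.97, SE 0.41, adjusted p = 0.307, limma). None of the 3 was called without the filter. The window at 1471 bp was also not called by DESeq2 or without NASH library 1. The window at 598 bp, with a change of 1.48 (SE 0.28, adjusted p = 0.0144, limma), was not called without NASH library 2 (0.0616) or control library 2 (0.0600), and the other two were not called without either of these libraries.

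Timd4 had 9 sites on the control list and 1 on the NASH list. The shared site, 6152 bp before the TSS, scored 566 on the NASH list and 1000 on the control list. Of the 8 control-only sites, 3 had the highest score, including the promoter site, and 2 lay 209354 and 253109 bp away. All 7 tested windows at Timd4 were lowered, 2 with control-only sites and 5 with no ATF3 site. Neither window with a control-only site was called by DESeq2 or without the filter. Nor was the window without ATF3 2590 bp into the gene called by DESeq2. The promoter window, chr11:46810556-46810822, had 0.53 and 1.56 tags in NASH and 12.7 and 15.0 in control (-2.64, SE 0.56, adjusted p = 0.00491, limma), and was not called without control library 2 (0.129). The deepest window, 887 bp into the gene and without ATF3, had 6.4 and 2.08 tags in NASH and 92.9 and 112 in control (-4.17, SE 0.38, adjusted p = 1.35e-05, limma). Another, 7105 bp into the gene, had no tag in NASH and 45 in control, at least 17.8-fold lower against a floor of 3 tags over both NASH libraries. Marco had 7 control-only sites, from 27710 bp before to 37507 bp after its TSS, and 3 NASH-only sites 53321 to 74646 bp after it. Its window at chr1:120532595-120532831 had 0.53 and 1.04 tags in NASH and 25.4 and 18.6 in control, a ratio of 0.0384 (counting interval 0.00772 to 0.117; adjusted p = 0.000628, limma). Of its 4 tested windows with control-only sites 3 were lowered. The call 22730 bp before the TSS was lost by DESeq2 and without the filter, and that at 26958 bp without the filter. Both were also lost when some single libraries were left out. At Pcolce2 6 of 7 tested windows were lowered, 1 with a control-only site, 5 with no ATF3 site, and the window at a shared site was not called (-1.48, SE 0.60, adjusted p = 0.0838, limma). The call at the control-only site was lost by DESeq2, without the filter and without control library 1. That 26 bp before the TSS was lost by DESeq2, without the filter and without NASH library 2. Without the filter, that 1405 bp into the gene was lost as well.

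Il6 had sites of different classes at 1 promoter, both at the highest score: a NASH-only site centred 184 bp before the TSS, over the AP-1 letters printed above, and a control-only site centred 178 bp after it, in an intron. The sites, chr5:30012825-30013036 and chr5:30013095-30013490, did not overlap. H3K27ac was lowered at both. The window of the NASH-only site had 0.53 and 3.64 tags in NASH and 15.8 and 14.2 in control (-2.32, SE 0.58, adjusted p = 0.0118, limma). The window of the control-only site had 8 and 6.76 tags in NASH and 27.5 and 30.5 in control (-1.58, SE 0.37, adjusted p = 0.00624, limma). The first was not called without NASH library 1 (0.0652) or control library 1 (0.0564), and neither was called by DESeq2 (0.156 and 0.0900). At Hmox1, where all 7 sites were shared, 5 windows under both lists had log2 changes of -0.95 to 0.21 and none was called. Of its 7 windows without ATF3, 1 was lowered, 17011 bp before the TSS (-2.44, SE 0.64, adjusted p = 0.0159, limma), though not by DESeq2, without NASH library 1 (0.136) or without control library 1 (0.162). At Clec4f, the C-type lectin that marks Kupffer cells, the promoter site was control-only (score 868) among 5 shared and 2 NASH-only sites farther away, and its promoter window was not called (-1.09, SE 0.46, adjusted p = 0.0815, limma). Of its 5 windows without ATF3, 2 were lowered, 3836 bp (-2.07, SE 0.59, adjusted p = 0.0231, limma) and 1310 bp (-0.95, or -1.20 before the median of all windows was subtracted, SE 0.33, adjusted p = 0.0324, limma) into the gene. Neither was called without NASH library 2 or without control library 1, and the second was also not called without NASH library 1 or with TMM scaling. By DESeq2 neither was called.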

How the data were processed

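The ATF3 site lists were deposited by the authors as output of HOMER's mergePeaks, 1 per diet, per the file headers, and the IDR score of each site is the authors' own. The column with that score has no name in the ATF3 lists and was read from its place in the LXR and P300 lists and its range. No source used here gives the IDR threshold of the ATF3 lists, and that of the LXR and P300 lists was 0.05, per the file headers. The H3K27ac signal was deposited by the authors as tags in ATAC-seq windows on mm10, scaled to 10000000 tags per library, per the file headers. Bowtie2, HOMER and DESeq2 are named without versions, per the submitters' processing notes. Site widths, scores and classes were compared as descriptions, with exact binomial intervals.

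Whole tags were recovered for 100% of values (tolerance 0.02 tags). Windows passing edgeR's filterByExpr were fitted with limma 3.58.1 (limma-trend, Benjamini-Hochberg adjustment, 2 libraries per diet), tested on simulated data, and edgeR 4.0.16 and DESeq2 1.42.0 were alternatives on the recovered tags. Other steps used Python 3.11.15 and R 4.3.3. Libraries held 9468035 to 22615879 tags, where 3 tags are 1.33 to 3.17 normalised tags.

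A site was assigned to the nearest TSS of 20392 of 21896 protein-coding genes. These starts came from a RefSeq promoter table and from the distances in the authors' window table, since no genome was used here, which departs from the planned annotation. Members, gene lists and tests were chosen with earlier results of these data known. Windows were named as the 6 per direction and class that had the lowest adjusted p of those called and whose diets did not overlap, 1 per gene, without predicted genes. Genes were named as the 10 with the most sites of a class, up to 4 per gene list, and a fixed set of loci. Input libraries and the peritoneal macrophage library were not analysed here. Some genes that the naming rule selects are not reported here. Alternatives changed the overlap, the score limit, the scaling, the filter, the pseudocount, the tool and the libraries.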

Additional observations from a re-analysis of the deposited data

How the results depend on the processing

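Of 100 alternative counts, libraries left out not included, 55 stayed within 1.5 times the reported count and 45 moved by more, and the cause was not tested. With both lists at an IDR of at most 0.01, 1518 sites were control-only. With both at the highest score, 8232 were shared and 1117 control-only, and with the own list at the highest score and the other in full, 14311 were NASH-only and 559 control-only. H3K27ac counts follow as raised and lowered, NASH against control. With TMM scaling they were 1191 and 902 over all windows, with 84 lowered under the NASH list alone, 125 and 86 under both lists and 17 and 70 under the control list alone. By edgeR's quasi-likelihood test 1357 were raised over all windows, 591 and 109 under the NASH list alone and 152 and 113 under both, and 19 raised under the control list alone. DESeq2 called 428 and 206 over all windows, 185 and 13 under the NASH list alone, 24 and 11 under both, and 3 and 17 under the control list alone. Without the filter these were 136 and 170, 59 and 14, 7 and 11, and 0 and 10. With ATF3 sites at the highest score only, 29 and 108 were called under both lists and 2 and 39 under the control list alone, and with a pseudocount of 5, 2 were raised under the control list alone. Deviations of same-numbered libraries were hardly correlated (0.0399), which cannot show whether the libraries were prepared in pairs. With a replicate block 2837 were lowered over all windows and 389 under the NASH list alone. Under both lists 105 and 377 were then called, and under the control list alone 17 and 181.

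Leaving out 1 library gave 176 to 841 raised and 684 to 2211 lowered over all windows, 74 to 393 and 75 to 262 under the NASH list alone, 9 to 102 and 51 to 192 under both, and 0 to 12 and 54 to 107 under the control list alone. The lone library of a diet is then assumed to vary like those of the other diet. Of 35 named windows, 25 kept their call in every alternative run, and of 350 alternative values 27 lost it and 0 reversed. Of 41 further called windows at the described loci, 12 kept it in every alternative, with 101 of 404 values lost and 0 reversed. With 2 libraries per diet and 9468035 tags in the shallowest, small changes at windows of few tags could not be detected.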
